A study of Mus musculus with 6 samples.

Results

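The genes described are 10 of dual-specificity phosphatases, out of 19285 genes with a value in every library. Of these, 9 encode MAP kinase phosphatases and were chosen for that function: Dusp1, Dusp2, Dusp4, Dusp5, Dusp6, Dusp7, Dusp8, Dusp10 and Dusp16. The remaining gene, Dusp15, was chosen by its measured FPKM, which was higher in the libraries of cells given endothelin-1, so its values are described and not tested. The libraries came from primary cultures of testicular peritubular myoid cells of C57BL/6J mice, the smooth-muscle-like cells around the seminiferous tubules, grown in DMEM/F12 with 10% fetal bovine serum. The 3 untreated libraries and the 3 libraries of cells given 50 nM endothelin-1 (ET-1) for 5 min share that strain, culture and cell type. Whether replicate libraries stem from different cultures or mice is not stated in the labels, and their spread, on which all p-values rest, may be technical.

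MAP kinase phosphatases switch off ERK, p38 and JNK kinases by removing phosphate from the threonine and the tyrosine of the activation loop. Several of their genes are themselves switched on by MAP kinase signalling, which makes them negative feedback regulators of the pathway. In smooth muscle cells, ET-1 acts through G protein-coupled receptors that activate ERK. Dusp15 encodes a small atypical enzyme without the docking domain of the MAP kinase phosphatases, and its human counterpart is known as a myristoylated phosphatase of the testis.

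Levels are in FPKM, the number of fragments per kilobase of a transcript at a common library depth, so that different genes can be compared per length. The steps between low values put the depth at about 17530000 to 18180000 fragments per library, with 16078 to 16537 genes above 0. Untreated libraries 1 and 3 were the closest pair (Pearson r = 0.996 across genes on the log2(FPKM + 1) scale). All remaining within-group pairs had an r of 0.973 to 0.983, and pairs across the groups 0.949 to 0.972. ET-1 library 3 was nearly as close to untreated libraries 1 and 3 (0.971 and 0.972) as to ET-1 libraries 1 and 2 (0.976 and 0.973). The smooth muscle markers fixed for the check of the cell type, such as Acta2 and Myh11, were all present, with summed levels of 3151 to 3645 FPKM in the untreated and 3589 to 5125 FPKM in the ET-1 libraries. Markers of other testicular cells were present too. Summed Leydig cell markers were at 2335 to 4960 FPKM in the untreated libraries and 828 to 2422 FPKM in the ET-1 libraries, so a level need not be that of myoid cells. Most of that sum was Insl3 (614 to 4532 FPKM), whereas Star of the same list was at 62.0 to 79.7 FPKM in the untreated and 103.7 to 155.1 FPKM in the ET-1 libraries. None of the 4 tested Leydig markers passed in limma. Of the 4, 3 had an unadjusted p under 0.05, against 24.1% of all tested genes. With the replicate number as a block 1 rose and 2 fell, in a fit where 9.45% of all genes passed. Rose and fell here mean higher and lower in the ET-1 group, not a change followed over time. In bulk RNA, fewer cells of a type and less RNA per cell cannot be told apart.

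RefSeq start sites of build GRCm38.p6 were matched for 8 of the 10 genes, and the 250 bases before each start were searched on both strands for letters of known response elements. Windows of 3 genes are shown because they held complete matches to a cyclic AMP response element (TGACGTCA) or a CArG box, the serum response element of many immediate early genes. They are the windows of Dusp1 (chr17:26508473-26508722, minus strand), Dusp8 (chr7:142095285-142095534, minus strand) and Dusp5 (chr19:53528895-53529144, plus strand), written 5′ to 3′ with the matches in capitals.
Dusp1: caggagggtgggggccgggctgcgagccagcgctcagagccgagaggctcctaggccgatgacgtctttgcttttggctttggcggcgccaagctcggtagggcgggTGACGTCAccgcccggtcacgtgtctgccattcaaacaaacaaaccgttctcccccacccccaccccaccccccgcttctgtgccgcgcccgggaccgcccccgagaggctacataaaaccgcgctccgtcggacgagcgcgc
Dusp8: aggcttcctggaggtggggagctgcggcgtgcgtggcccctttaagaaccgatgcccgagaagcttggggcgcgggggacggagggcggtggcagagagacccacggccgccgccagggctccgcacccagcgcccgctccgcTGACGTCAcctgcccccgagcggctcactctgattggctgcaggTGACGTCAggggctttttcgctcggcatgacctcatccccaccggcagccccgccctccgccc
Dusp5: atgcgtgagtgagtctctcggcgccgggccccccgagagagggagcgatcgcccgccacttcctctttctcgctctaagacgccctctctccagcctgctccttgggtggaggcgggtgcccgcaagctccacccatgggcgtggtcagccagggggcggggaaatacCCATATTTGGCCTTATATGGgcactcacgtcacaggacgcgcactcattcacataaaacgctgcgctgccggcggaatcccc
The Dusp1 window held 1 complete TGACGTCA and the Dusp8 window 2, and 1.55% of 32851 windows of the same length before RefSeq starts held at least 1. The Dusp5 window held 2 adjoining CArG boxes, an element found in 1.47% of the windows. The deposited start of Dusp5 lies downstream of the RefSeq start used here. The shorter letters TGACG, which lie inside TGACGTCA, were in the windows of Dusp1, Dusp5, Dusp8 and Dusp16 and in 17.8% of all windows. The AP-1 letters TGANTCA (6.75% of all windows) and the ETS letters CCGGAA (12%) were in none of the 8. A match describes the sequence and is not a measured binding site.

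Untreated cells held very different amounts of the phosphatase transcripts. Dusp1, the nuclear phosphatase that acts on p38, JNK and ERK and is itself an immediate early gene, was the most abundant at 96.8 ± 23.0 FPKM (mean ± SD, n = 3). It was followed by Dusp6, the cytoplasmic phosphatase of ERK, at 65.5 ± 3.9 FPKM, and Dusp4, a nuclear phosphatase, at 38.6 ± 7.3 FPKM. Dusp10, which acts on p38 and JNK, was at 19.9 ± 2.6 FPKM and Dusp5, the nuclear phosphatase of ERK, at 18.6 ± 1.9 FPKM. These neighbours in the order overlapped. Dusp7, a cytoplasmic phosphatase of ERK, at 6.03 ± 1.44 FPKM overlapped with Dusp16, a phosphatase of JNK, at 5.83 ± 0.93 FPKM. Dusp8, which acts on JNK and p38, was at 4.15 ± 0.57 FPKM. Dusp15 was at 1.21 ± 0.66 FPKM and Dusp2, known from blood cells, was lowest at 0.297 ± 0.065 FPKM (n = 3 each). Apart from the 2 overlapping pairs, the untreated ranges of neighbours in this order did not overlap. In the ET-1 libraries Dusp15 moved from the ninth to the sixth place, with a range of 5.73 to 9.49 FPKM that overlapped with the 4.49 to 8.22 FPKM of Dusp7 and lay above the ranges of Dusp8 and Dusp16.

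**Figure D1:**
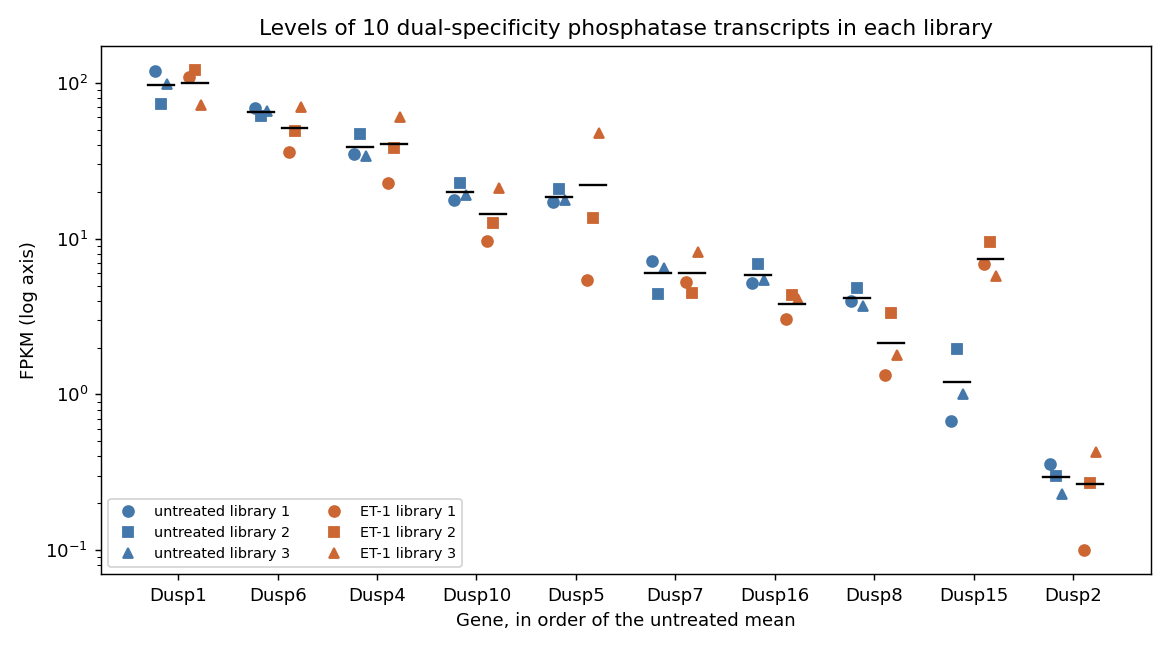
Level of each of the 10 genes (FPKM, logarithmic axis) in the 3 untreated (blue) and 3 ET-1 libraries (orange), with the symbol giving the library number and the black line the mean of a group. Dusp15 is at 0.68 to 1.95 FPKM in the untreated and 5.73 to 9.49 FPKM in the ET-1 libraries, whereas the groups overlap for most other genes.

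Dusp15 was the only one of the 10 genes with every ET-1 library above every untreated one, a separation that 13.2% of all tested genes showed. It lies on chromosome 2 (152940995 to 152951582, minus strand, mm10) and has 2 transcripts in the deposited annotation. Its level was 0.68, 1.95 and 1 FPKM in untreated libraries 1, 2 and 3 and 6.92, 9.49 and 5.73 FPKM in ET-1 libraries 1, 2 and 3. The libraries numbered 2 were the highest of both groups. The mean was 7.38 ± 1.92 FPKM after ET-1 (n = 3), 6.10 times the untreated mean, and the difference on the log2(FPKM + 1) scale was 1.94, a scale that understates the change of a low gene. At the estimated depth these levels stand for about 39 to 110 fragments in the untreated and 323 to 519 in the ET-1 libraries. These numbers take the length of the longest transcript (3121 bases), and a shorter one would give fewer. Because the gene was picked for this difference, no test is given. It would not have met the level filter on untreated values alone.

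The summed Sertoli cell and macrophage markers were on average higher in the ET-1 group, as Dusp15 was, whereas the endothelial and Leydig sums were lower. Unlike Dusp15, the Sertoli and Leydig sums overlapped between the groups. The 12 Sertoli cell markers summed to 236.9, 739.4 and 328.3 FPKM in untreated libraries 1 to 3. In ET-1 libraries 1 to 3 the sum was 469.4, 1248 and 582.0 FPKM. Library 2 was the highest of its group in this sum, as for Dusp15. A large part of it was Cldn11, at 105.1 to 481.1 FPKM in the untreated and 206.1 to 573.3 FPKM in the ET-1 libraries. Of 11 tested markers 3 rose (Sox8, Gstm6 and Aard), where 3.46% of all tested genes passed in limma. In the fit with the replicate number as a block 5 rose and 1 fell (Tjp1), where 9.45% of all genes passed. By sign 9 of the 11 differences lay above 0, and those of Tjp1 and Fshr below. The groups overlapped for Sox9 and Wt1 (limma adjusted p = 0.666 and 0.656). Untreated library 2 had a larger Sertoli sum than ET-1 libraries 1 and 3 and less Dusp15 than either. The 15 macrophage markers summed to 124.8 to 203.0 FPKM in the untreated and 312.9 to 740.0 FPKM in the ET-1 libraries. Lyz2 was the 1 of 13 tested that rose, and 6 rose and 1 fell with the block, beside the same 3.46% and 9.45%. The 11 germ cell markers summed to 8.55, 14.7 and 11.2 FPKM in the untreated and 7.59, 18.0 and 16.9 FPKM in the ET-1 libraries, and none of the 3 tested passed in limma (with 0 of them at an unadjusted p under 0.05). ET-1 library 1 had the lowest germ cell sum of the 6 libraries and the second highest Dusp15. The part of these cell types in the level of Dusp15 was not tested.

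The genes most like Dusp15 across the 6 libraries, by Pearson's r on log2(FPKM + 1) among 11353 named genes, were Zfp362 (r = 0.996), Pdlim3 (0.996), Wdr70 (0.995), Ap5z1 (0.995) and Htatsf1 (0.994). Zfp362 was at 7.38, 10.2 and 7.90 FPKM in the untreated and 15.8, 16.9 and 13.9 FPKM in the ET-1 libraries. All 5 share the separation of the groups and the high value in library 2, and 162 genes had an r above 0.95, so likeness over 6 libraries singles out no gene.

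The ET-1 libraries were of cells given ET-1 for 5 min, and a response at later times was not tested. None of the MAP kinase phosphatase genes passed the test between ET-1 and untreated libraries. Of the 8 with enough signal to be tested, 0 passed an adjusted p of 0.05 in limma, which compares group means gene by gene with a spread shared across genes, and 2 of the 8 had an unadjusted p under 0.05, against 24.1% of all tested genes. Over all 11664 genes tested 3.46% (404) passed. That count was 0 without untreated library 3 (where 1653 had an unadjusted p under 0.05) and 797 without ET-1 library 3. By sign 7 of the 8 differences lay below 0, with a median log2 difference of -0.316, whereas the median over all genes tested was -0.027 and 6331 of them lay below 0. The signs of Dusp1, Dusp4 and Dusp7, whose differences were close to 0, changed with the libraries left out or, for Dusp4 and Dusp7, with the scaling. The summed level of the 9 genes was 274.7, 241.4 and 250.9 FPKM in the untreated and 191.9, 246.9 and 285.0 FPKM in the ET-1 libraries, which overlap.

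Dusp8 and Dusp16 were the phosphatases whose groups did not overlap, and neither passed the limma test. Dusp8 (chromosome 7, 142079487 to 142095284) measured 3.96, 4.79 and 3.70 FPKM in the untreated and 1.33, 3.33 and 1.79 FPKM in the ET-1 libraries. All 3 ET-1 values lay below all untreated ones. Its log2 difference was -0.75 ± 0.24 (SE; 95% interval -1.31 to -0.20; limma adjusted p = 0.118). With the replicate number as a block the adjusted p in limma was 0.0412, in a fit where 9.45% of all genes passed. Dusp16 (chromosome 6, 134715468 to 134792628) was at 5.20, 6.90 and 5.39 FPKM and at 3.03, 4.37 and 4.07 FPKM, again without overlap. Its log2 difference was -0.50 ± 0.16 (SE; 95% interval -0.88 to -0.12; limma adjusted p = 0.123). Groups without overlap and with ET-1 lower made up 17.6% of all tested genes, and 2 of the 8 phosphatases. Dusp10 (chromosome 1, 184034461 to 184075636) was at 17.8, 22.9 and 19.1 FPKM in the untreated and 9.65, 12.6 and 21.1 FPKM in the ET-1 libraries. Only ET-1 library 3 reached the untreated range, and the difference was -0.50 ± 0.26 (SE; limma adjusted p = 0.294).

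The groups overlapped for Dusp6, Dusp5 and Dusp7, the phosphatases that act on ERK alone or mainly. Dusp6 (chromosome 10, 99263231 to 99267489) was at 69.2, 61.4 and 65.8 FPKM in the untreated and 35.9, 48.8 and 69.7 FPKM in the ET-1 libraries. ET-1 libraries 1 and 2 lay below the untreated range and library 3 just above it, and the log2 difference was -0.39 ± 0.22 (SE; 95% interval -0.92 to 0.14; limma adjusted p = 0.334). Dusp5 (chromosome 19, 53529318 to 53541322) had untreated levels of 17.2, 20.7 and 17.8 FPKM. In ET-1 libraries 1, 2 and 3 it was at 5.40, 13.6 and 47.4 FPKM, so libraries 1 and 2 lay below and library 3 above every untreated value. Its log2 difference of -0.24 ± 0.65 (SE; 95% interval -1.79 to 1.31; limma adjusted p = 0.851) was -1.02 without ET-1 library 3 and 0.44 without ET-1 library 1. Dusp7 (chromosome 9, 106368632 to 106375724) was at 7.19, 4.42 and 6.48 FPKM and at 5.27, 4.49 and 8.22 FPKM, with a difference of -0.02 ± 0.24 (SE; limma adjusted p = 0.969).

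The nuclear phosphatases of broader or other specificity overlapped too. Dusp1 (chromosome 17, 26505591 to 26508472) was at 118.9, 73.0 and 98.4 FPKM in the untreated and 108.3, 121.1 and 71.8 FPKM in the ET-1 libraries. Here ET-1 library 3 was the lowest of its group, and the difference was 0.05 ± 0.24 (SE; 95% interval -0.53 to 0.63; limma adjusted p = 0.930). Dusp4 (chromosome 8, 34807610 to 34819894) was at 34.8, 47.0 and 33.9 FPKM and at 22.9, 38.4 and 60.5 FPKM, with a difference of -0.02 ± 0.33 (SE; 95% interval -0.80 to 0.76; limma adjusted p = 0.982). Dusp2 (chromosome 2, 127336159 to 127338377) was at 0.36, 0.30 and 0.23 FPKM in the untreated and 0.10, 0.27 and 0.43 FPKM in the ET-1 libraries. These levels stand for about 3 to 13 fragments per library. The gene was below the filter and a difference was not detectable at this depth. Lymphocyte markers were near 0, with Cd2, Ms4a1 and Nkg7 at 0 in all libraries and a summed level of at most 0.81 FPKM over the 7 markers. Macrophage and leukocyte markers were present, with sums of 124.8 to 740.0 FPKM. The part of blood cells in the level of Dusp2 was not tested.

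**Figure D2:**
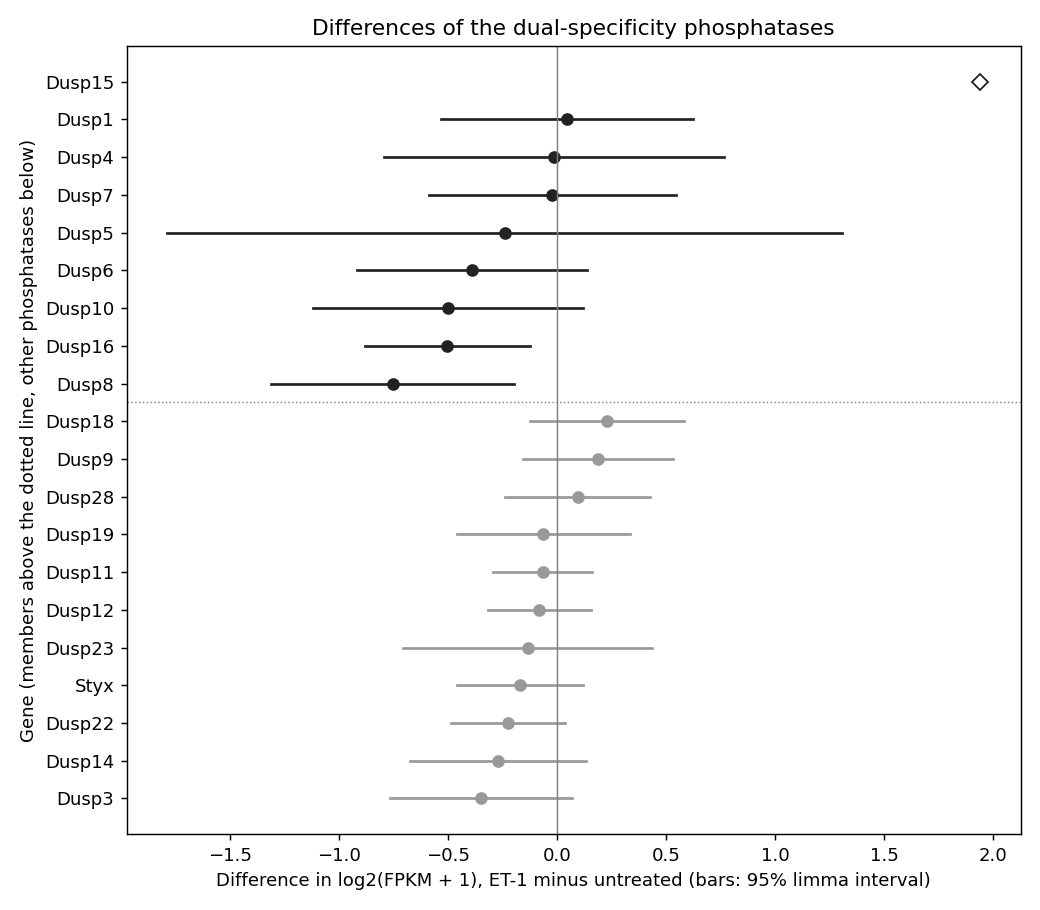
Difference in log2(FPKM + 1), ET-1 minus untreated, with 95% limma intervals, for the members with enough signal (black, above the dotted line) and 11 other dual-specificity phosphatases (grey). The intervals of Dusp8 and Dusp16 lie below 0 before adjustment over all genes, and Dusp15 (open diamond, 1.94) has no interval because it was chosen for its difference.

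The authors' deposited table gives a different picture of the same libraries. Without Dusp15, which was picked for its rise, 7 of the 9 genes had a q-value under 0.05 in the authors' deposited table, against 66.1% of the 16812 genes with a q-value. The authors' deposited table lists Dusp6 at a log2 fold of -0.34 with a q-value of 2.22e-57, although the FPKM of ET-1 library 3 lay above every untreated library. The authors' deposited table lists Dusp5 at a log2 fold of 0.26 with a q-value of 4.59e-06, although its ET-1 libraries lay on both sides of the untreated ones. The sign there is that of the ratio of mean FPKM (1.19), while the mean of log2 values above is negative.

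For each of the 8 tested MAP kinase phosphatases the ET-1 libraries lay farther apart than the untreated ones. The highest ET-1 library was 8.77 times the lowest for Dusp5, 2.64 times for Dusp4, 2.50 times for Dusp8, 2.19 times for Dusp10 and 1.94 times for Dusp6. The ratios of Dusp7 (1.83 against 1.63 in the untreated libraries), Dusp1 (1.69 against 1.63) and Dusp16 (1.44 against 1.33) differed less between the groups. In the untreated libraries the 8 tested phosphatases had ratios of 1.13 to 1.63. Of all tested genes, 67.9% had a larger ratio in the ET-1 group. The median ratio over all genes tested was 1.33 in the ET-1 and 1.21 in the untreated group, and the ratio of Dusp5 stood at the 99.9th percentile of the ET-1 ratios. Library 1 was lowest and library 3 highest of the ET-1 libraries for Dusp4, Dusp5, Dusp6 and Dusp10, which is 4 of the 8 tested, against 22.6% of all tested genes. The untreated libraries gave no such order for these 4 genes, since library 2 was highest for Dusp4, Dusp5 and Dusp10 and lowest for Dusp6.

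**Figure D3:**
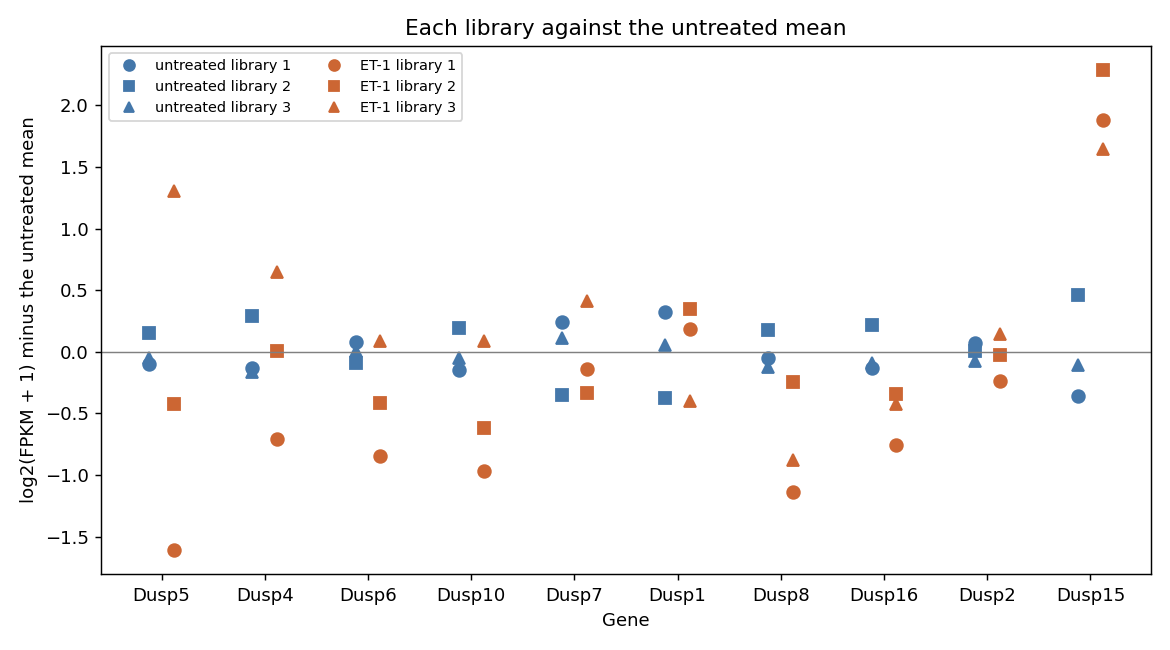
Each library's log2(FPKM + 1) minus the untreated mean of the gene, for untreated (blue) and ET-1 libraries (orange), with the symbol giving the library number. For Dusp5 the ET-1 libraries run from -1.61 in library 1 to 1.31 in library 3, and Dusp4, Dusp6 and Dusp10 keep that order, while Dusp15 is at 1.65 to 2.29 in all 3.

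Cell type markers differed between the ET-1 libraries as well. In ET-1 libraries 1, 2 and 3 the macrophage markers summed to 740.0, 392.2 and 312.9 FPKM, the endothelial markers to 35.9, 26.8 and 47.4 FPKM and the Leydig cell markers to 1685, 828 and 2422 FPKM. Library 3, which was high in Dusp4, Dusp5, Dusp6 and Dusp10, was thus lowest in the macrophage sum and highest in the endothelial and Leydig sums. Their part in the spread of the phosphatases was not tested. The 8 endothelial markers summed to 60.1 to 94.1 FPKM in the untreated libraries. Of the 6 tested, 4 fell (Pecam1, Esam, Egfl7 and Emcn), where 3.46% of all tested genes passed in limma. In the fit with the replicate number as a block 5 fell and 0 rose, where 9.45% of all genes passed. Only Cdh5 had a log2 difference above 0 (0.25, limma adjusted p = 0.691). Its level was 9.94 to 20.66 FPKM in the untreated libraries. In ET-1 libraries 1, 2 and 3 it was 22.1, 11.17 and 24.8 FPKM, a large part of each endothelial sum. Library 3 was the highest ET-1 library in 5 of the 6 tested endothelial markers, against 39.2% of all tested genes.

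The genes most like Dusp6 across the 6 libraries were Arf6 (r = 0.997), Map3k2 (0.996), Zfp592 (0.994), Klf9 (0.993) and Gfod1 (0.993). Map3k2, a kinase upstream of MAP kinase kinases, was at 2.79, 2.64 and 2.68 FPKM in the untreated and 1.46, 2.09 and 2.86 FPKM in the ET-1 libraries. Klf9, a zinc finger transcription factor, was at 19.1, 17 and 18.7 FPKM and at 7.70, 11.8 and 18.1 FPKM. Among the ET-1 libraries both were lowest in library 1 and highest in library 3, as Dusp6 was, and 150 of the 11353 genes had an r above 0.95.

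Around the phosphatases, 2 of the 66 tested genes of the pathway lists passed in limma, against 3.46% of all tested genes. Of 11 tested other dual-specificity phosphatases none passed in limma and 0 had an unadjusted p under 0.05, and the smallest p was that of Dusp22 at 10.8, 9.29 and 9.24 FPKM in the untreated and 7.86, 7.99 and 8.81 FPKM after ET-1 (limma adjusted p = 0.268). Dusp3, an atypical phosphatase of ERK and JNK, was at 31.3, 30.7 and 32.4 FPKM and at 19.3, 32.1 and 23.5 FPKM (limma adjusted p = 0.275). The median log2 difference of these phosphatases was -0.081. Of 16 tested MAP kinases and MAP kinase kinases 6 had an unadjusted p under 0.05 in limma, against 24.1% of all tested genes. After adjustment 1 of the 16 rose and none fell, with a median log2 difference of -0.005. The one that rose was Mapk3, which encodes ERK1, with 90.7, 89.8 and 88.4 FPKM in the untreated and 151.5, 149.7 and 129.0 FPKM after ET-1 (limma adjusted p = 0.0254). The call of Mapk3 was lost when untreated library 1 or 3 or ET-1 library 1 or 2 was left out (limma adjusted p = 0.0614 to 0.163).

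None of 4 tested other phosphatases that act on MAP kinases passed in limma (with 2 of them at an unadjusted p under 0.05, against 24.1% of all tested genes; median log2 difference -0.224). Ptpn5, a tyrosine phosphatase of ERK and p38, was at 13.3, 4.11 and 10.9 FPKM in the untreated and 1.74, 0.82 and 3.58 FPKM in the ET-1 libraries, with an adjusted p in limma of 0.0861, of 0.0129 with the replicate block and of 0.0443 without untreated library 2. None of 6 tested Sprouty and Spred genes, inhibitors of RAS and ERK signalling, passed in limma (with 0 of them at an unadjusted p under 0.05; median -0.059). Spry2 was at 48.1, 33.9 and 42.5 FPKM and at 21.7, 23.6 and 44.4 FPKM, and Spry4 at 7.62, 3.69 and 6.03 FPKM and at 2.07, 3.28 and 4.99 FPKM. Their adjusted p-values in limma were 0.300 and 0.269. In 5 of these 6 genes ET-1 library 3 was the highest of its group, against 39.2% of all tested genes.

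Of 7 tested transcripts used as readouts of ERK signalling none passed in limma (with 2 of them at an unadjusted p under 0.05, against 24.1% of all tested genes; median -0.278). Etv4, an ETS transcription factor, was at 9.43, 7.35 and 8.94 FPKM and at 12.3, 11.9 and 15.7 FPKM (limma adjusted p = 0.0793; with the block, 0.0403). Among 22 tested immediate early genes 8 had an unadjusted p under 0.05 in limma, against 24.1% of all tested genes. After adjustment Fosb rose and none fell, with a median of 0.108, where 3.46% of all tested genes passed. With the block 3 rose and 2 fell, in a fit where 9.45% of all genes passed. Fosb, an AP-1 subunit, was at 3.43, 3.42 and 3.21 FPKM in the untreated and 11.4, 7.24 and 12.5 FPKM after ET-1 (limma adjusted p = 0.0249). The call of Fosb was lost when untreated library 1 or 3 or ET-1 library 1 was left out (limma adjusted p = 0.0773 to 0.134). Fos was at 24.6, 32.7 and 25.4 FPKM and at 66.8, 48.1 and 32.3 FPKM (limma adjusted p = 0.137), with its highest ET-1 value in library 1 and its lowest in library 3, the opposite of Dusp5. Egr1 was at 47.0, 30.1 and 39.2 FPKM and at 70.6, 57.3 and 112.5 FPKM (limma adjusted p = 0.0887; with the block, 0.0296). In 16 of the 22 genes ET-1 library 3 was the highest of its group, against 39.2% of all tested genes. Chosen after their values were seen, Nr4a1 and Egr3 had their highest values in that library, at 76.6 FPKM against 13.5 to 26.4 FPKM in the 5 others for Nr4a1, and at 5.73 FPKM against 0.40 to 1.02 FPKM for Egr3.

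**Figure D4:**
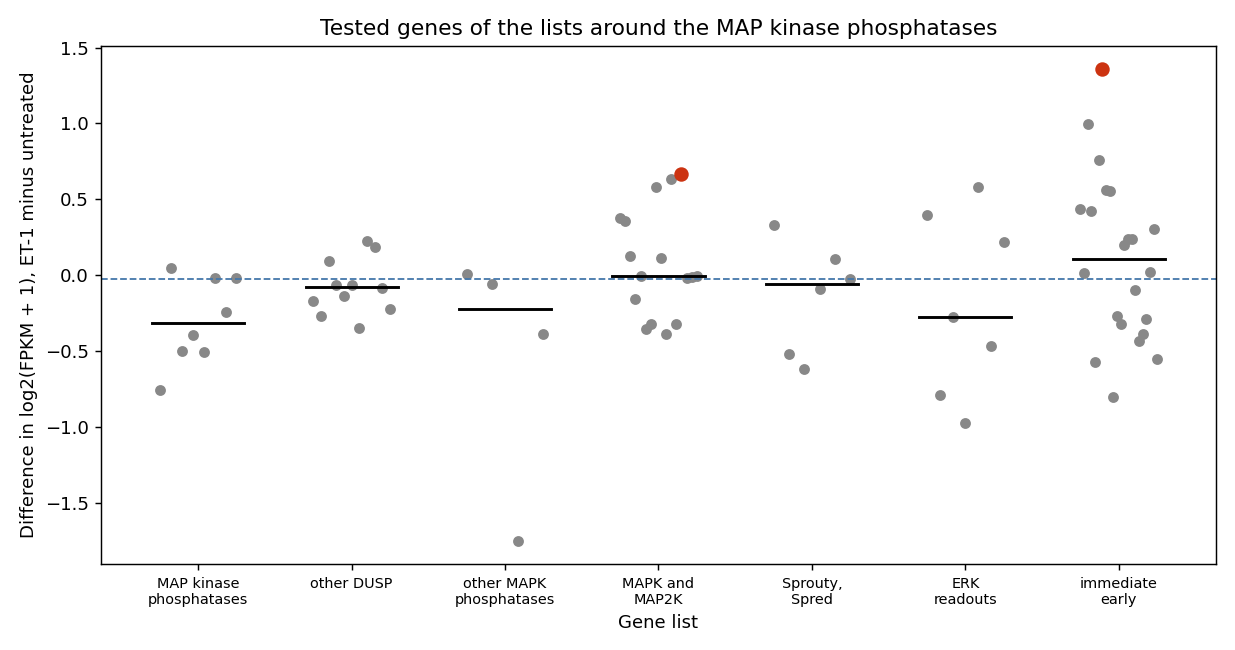
Difference in log2(FPKM + 1), ET-1 minus untreated, of the tested genes of each list, without Dusp15. Red points passed the limma test (Mapk3 and Fosb), black lines are the medians of the lists and the dashed line is the median of all tested genes (-0.027).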

How the data were processed

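Groups and replicate numbers came from the sample titles. The authors deposited 1 table with an FPKM value per gene and library, rounded to 2 decimals, per the file headers. The submitters' processing notes name mm10 as the build and, without their roles, RSEM 1.2.12, HISAT2 2.0.4 and Bowtie2 2.2.5. The same table holds the authors' mean FPKM per group, log2 fold change, p-value and q-value (named for DEGseq), with no statement on the use of replicates in the sources used here. FPKM is not a count, so no count test was run.

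Of 22135 rows, 19285 had values. The 11664 genes that reached 1 FPKM in 3 or more libraries were tested in R 4.3.3 with limma 3.58.1 on log2(FPKM + 1) values (mean-variance trend, two-sided, Benjamini-Hochberg adjustment, threshold 0.05). An exact permutation test of 3 against 3 libraries cannot go below p = 0.1, so none is given. Depth was estimated from single-transcript genes of 300 to 1200 bases at FPKM 0.05 to 0.6, where 87.1% to 91.2% of values lay within 0.15 of a whole fragment. The depth was chosen by a score that includes this share, so the share is not an independent check of the depth.

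Deviations from the group means correlated between libraries of the same number (r = 0.228, 0.523 and 0.202 across genes for numbers 1, 2 and 3). A second fit therefore had the replicate number as a block. The labels do not say what a number stands for, and the crossed pairings of numbers 1 and 3 gave 0.271 and 0.249. In simulated data for this comparison (11664 genes), limma recovered 24.2% of the 1.5-fold changes, 63.0% of the 2-fold and 91.5% of the 4-fold ones. These were folds of FPKM + 1, which are larger folds of FPKM for low genes. The simulation gave both groups of a gene the same spread and drew genes independently, so the wider ET-1 spread was not simulated. The members and lists were chosen with earlier results of these data known. Named genes are the 10 members, per pathway list up to 3 passing genes in each direction or else the smallest p, a fixed set (Mapk3, Fos, Egr1, Spry2, Spry4, Dusp3), and the 5 genes most like Dusp15 and Dusp6. Passing cell type markers are named as well, with some of their lists that did not pass. The fixed set held 1 further gene, whose result is not reported here. Of the 16 other phosphatases listed, 15 were matched in the table. Promoter windows are from RefSeq, GRCm38.p6, the assembly of mm10.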

Additional observations from a re-analysis of the deposited data

How the results depend on the processing

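The count of 0 MAP kinase phosphatases past the threshold was the same under all alternatives run but the replicate block, which gave 1 (Dusp8, log2 difference -0.754). The block gave 8 calls over the pathway lists, against 2, and 1102 over all genes, against 404. Without a filter 193 genes passed. With untreated libraries 1 and 3 averaged, 9 genes and 0 pathway genes (12 at an unadjusted p under 0.05 in limma) passed. Leaving out 1 library gave 0 (without untreated library 3) to 797 genes (without ET-1 library 3), 0 to 11 pathway genes and 0 to 0 phosphatases, in fits over the same 11664 genes. Without ET-1 library 3, 4 of the 8 phosphatases had an unadjusted p under 0.05 in limma, as did 3554 of the 11664 genes. The smallest adjusted p-values of phosphatases in that limma fit were 0.0503 (Dusp10) and 0.0651 (Dusp6). The log2 difference of Dusp15 was 2.60 at a pseudocount of 0.1 and 0.989 at a pseudocount of 5, by construction of the scale, and 1.76 to 2.17 with 1 library left out. Differences near 0 changed sign without passing: Dusp4 was at 0.053 with quantile normalization and 0.026 with equal medians. Dusp7 was at 0.0062 with quantile normalization, 0.021 with equal medians and 0.066 with untreated libraries 1 and 3 averaged. With 1 library left out, Dusp1 ran from -0.141 to 0.268, Dusp4 from -0.351 to 0.331, Dusp5 from -1.016 to 0.444 and Dusp7 from -0.239 to 0.135. The cause was not tested. Low levels, such as that of Dusp2, rest on few fragments.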
